A study of Homo sapiens with 9 samples.

Results

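PI16, FAP, THY1, FBLN1, FBLN2, PDGFRB, PDGFRA, S100A4, TAGLN and ACTA2 are 10 genes whose products are used to recognise fibroblasts, mural cells and other mesenchymal cells. They were chosen by gene symbol, with earlier results of the same libraries known, among them the fall of PI16 after 48H, and make up 10 of the 29740 genes in the count table. The fold changes of these genes below are therefore a description. No p-value is printed for them, and statements that a marker passed or missed a threshold are part of that description. The question was whether the 10 markers moved together or apart in endothelial cells exposed to trimethylamine N-oxide (TMAO), a compound that the liver makes from a product of gut bacteria.

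HMEC-1, an immortalised line of human dermal microvascular endothelial cells, was left untreated (CTRL) or given TMAO at 50 µM, for 24H in one group and 48H in another, and each of these groups has 3 RNA sequencing libraries. All 9 libraries came from this 1 line. During TMAO treatment the cells were in serum-starved medium, and the paper does not state the medium of CTRL separately. CTRL combines untreated cells from either time-point in the study, so TMAO and time in culture cannot be told apart in any comparison with CTRL, nor can they between 48H and 24H. The labels do not say whether the libraries came from separate cultures, so the errors measure the spread between libraries.

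Fibroblasts build and remodel the extracellular matrix, whereas mural cells, the pericytes and smooth muscle cells, wrap the vessel wall and contract. In endothelial-to-mesenchymal transition, endothelial cells lose endothelial genes and gain contractile, fibroblast and matrix genes, and for that reason such markers are read in endothelial cultures. No single one of the 10 genes marks a mesenchymal cell by itself, since several are also transcribed in endothelium or in cultured lines.

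Total estimated counts ranged from 25205756 to 36927373 per library, and 14740 genes passed the filter on low counts, all 10 markers among them. Ribosomal RNA took 31.5% of the counts in TMAO 24H replicate 1 and 1.64 to 7.46% in the other 8 libraries. Endothelial genes were transcribed in CTRL, with mean normalised counts of 21222 for CDH5, 10447 for PECAM1, 16499 for TIE1 and 3378 for VWF. Other genes of the same list of 15 were lower, among them FLT1 at 705, ESAM at 369 and CLDN5 at 50.2. Many other genes of the fibroblast list were also transcribed in CTRL, with means of 20626 for COL1A1, 8983 for COL1A2 and 1023 for COL3A1, and 22 of its 30 genes passed the filter. Within that list DCN and LUM were at 0 in 8 of 9 libraries each, and DPT, the only 1 of the 30 at 0 throughout, in all 9. Among 8 keratinocyte markers the summed normalised count was 476 in TMAO 48H replicate 3 and 1999 to 3496 in the other 8 libraries. PI16, FAP and ACTA2 were called at 48H against CTRL both with and without that library. The part of the keratinocyte difference in the results was not tested. The 8 leukocyte markers summed to 593 to 716, with PTPRC at 0 to 3 estimated counts.

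The markers that moved furthest apart after 48H were ACTA2, which rose, and PI16, which fell, so the sequence around 1 start site of each is printed for comparison. The windows are from RefSeq on GRCh38.p14, 250 bases before to 50 bases after the start, written along the strand of the gene. They lie at chr10:88952724-88953023 on the minus strand for ACTA2 and at chr6:36948046-36948345 on the plus strand for PI16. Capitals mark letters that match 1 of the motifs searched.
ACTA2: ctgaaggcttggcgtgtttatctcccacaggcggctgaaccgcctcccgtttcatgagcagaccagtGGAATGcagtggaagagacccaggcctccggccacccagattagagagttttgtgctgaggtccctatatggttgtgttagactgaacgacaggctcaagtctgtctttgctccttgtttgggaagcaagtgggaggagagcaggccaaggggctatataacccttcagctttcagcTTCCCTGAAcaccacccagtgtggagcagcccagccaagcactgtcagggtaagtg
PI16: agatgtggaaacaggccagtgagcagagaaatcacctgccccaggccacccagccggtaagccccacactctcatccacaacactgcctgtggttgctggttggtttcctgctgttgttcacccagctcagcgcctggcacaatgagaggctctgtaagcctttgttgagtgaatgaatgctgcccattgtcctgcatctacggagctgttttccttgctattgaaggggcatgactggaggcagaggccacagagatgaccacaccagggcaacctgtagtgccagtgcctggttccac

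Both strands were searched for 5 motifs. The CArG box, bound by serum response factor, was searched only in its exact form of CC, 6 letters of A or T, and GG. The others were TATAAA, the AP-1 letters TGANTCA, the TEAD letters GGAATG and the interferon-activated GAS letters TTCNNNGAA. The printed ACTA2 window held GGAATG 183 bases before the start and TTCCCTGAA 6 bases before it, and the PI16 window held none of the 5. Because TGANTCA and TTCNNNGAA read alike on both strands, each such match counts on both. Of all 35116 windows of this length, 1.29% held the CArG box, 11.5% TATAAA, 7.71% TGANTCA, 14% GGAATG and 7.66% TTCNNNGAA.

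RefSeq windows were found for 7 of the 10 markers, 10 windows in all, and not for FAP, THY1 and TAGLN. A window of PDGFRA held TGAATCA and the window of S100A4 held TATAAA. An exact CArG box was in none of the 10 windows. The printed ACTA2 window does hold ccctatatgg and ccttgtttgg, each a single letter off the exact form. Such near matches were not searched for, so the absence of exact matches does not show that a promoter lacks a CArG box. A match is a description of letters and neither a binding site nor a cause.

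PI16 encodes a secreted peptidase inhibitor and is known as a marker of adventitial fibroblasts. Its normalised read count was 149, 165 and 137 in the CTRL libraries, 213, 173 and 183 at 24H, and 48.9, 31.7 and 42.6 at 48H. Every library at 48H lay far below every other library, and the libraries at 24H were all above CTRL. The mean was 150 ± 14.2 (SD, n = 3) in CTRL, 190 ± 20.7 at 24H and 41.1 ± 8.69 at 48H.

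PI16 showed the largest change of the 10 markers. It fell by 1.88 (SE 0.166) on the log2 scale after 48H against CTRL, with a 95% interval from -2.24 to -1.52, which is 0.272-fold. A gene was called where edgeR's quasi-likelihood test gave an adjusted p under 0.05, over all 14740 genes, and the fold was at least 1.4, and PI16 met this rule. At 24H the log2 difference was 0.33 (SE 0.152), with an interval from 0.0050 to 0.66, and PI16 was not called. In bulk samples, fewer cells that transcribe a gene and less RNA per cell cannot be told apart.

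FAP, fibroblast activation protein, is a surface serine protease of activated fibroblasts. It was measured at normalised counts of 112, 128 and 104 in CTRL, 136, 120 and 123 at 24H, and 74.5, 64.3 and 70.2 at 48H. The 48H libraries were below all others, while CTRL and 24H overlapped. FAP fell by 0.72 (SE 0.138; 95% interval -1.02 to -0.42) on the log2 scale at 48H and was called. The 24H difference was 0.13 (SE 0.134), with 0 inside its interval of -0.15 to 0.42.

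THY1, the surface glycoprotein CD90 of fibroblasts and activated endothelium, went the other way. Its normalised counts were 484, 472 and 421 in CTRL, 507, 484 and 485 at 24H, and 633, 604 and 665 at 48H. All 48H libraries were above all others, and those at 24H were just above CTRL. The log2 difference at 48H was 0.47 (SE 0.0715; 95% interval 0.31 to 0.62), or 1.38-fold, so THY1 rose at an adjusted p under 0.05 but missed the 1.4-fold threshold and was not called. At 24H the difference was 0.10 (SE 0.0715).

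FBLN1 and FBLN2 encode fibulins, glycoproteins that link matrix and elastic fibres. FBLN1 had normalised counts of 264, 331 and 241 in CTRL, 272, 265 and 264 at 24H, and 346, 377 and 376 at 48H. The 48H libraries were the highest, but CTRL replicate 2 came close to the lowest of them. Its log2 difference at 48H was 0.40 (SE 0.108; 95% interval 0.16 to 0.63), or 1.32-fold.

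FBLN2 had normalised counts of 273, 274 and 294 in CTRL, 253, 239 and 244 at 24H, and 359, 326 and 336 at 48H. It was lowest at 24H and highest at 48H, with no overlap between the 3 groups. The log2 difference was -0.19 (SE 0.0823) at 24H, which did not pass the test, and 0.28 (SE 0.0820; 95% interval 0.10 to 0.46) at 48H. Both fibulins passed an adjusted p of 0.05 at 48H with folds under 1.4. With 1 of the 6 libraries compared left out, and so with fewer samples, FBLN1 passed in 2 of 6 fits and FBLN2 in 0 of 6, while their log2 differences stayed at 0.30 to 0.54 and 0.24 to 0.31.

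The receptors for platelet-derived growth factor (PDGF), PDGFRB and PDGFRA, carry the signal that recruits mural cells and drives fibroblast growth. PDGFRB was well covered, at 1524, 1487 and 1371 normalised counts in CTRL, 1335, 1390 and 1420 at 24H, and 1241, 1345 and 1350 at 48H. All 48H libraries were below all CTRL libraries, but by little. The log2 difference at 48H was -0.16 (SE 0.0543; 95% interval -0.27 to -0.038) and did not pass the test over all genes.

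PDGFRA was near the limit of detection. Its estimated counts were 13, 11 and 8 in CTRL, 9, 6 and 12 at 24H, and 6, 3 and 11 at 48H. The groups overlapped, and the 48H difference of -0.56 (SE 0.543; 95% interval -1.73 to 0.61) on the log2 scale was imprecise at this depth.

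S100A4, a calcium-binding protein also called fibroblast-specific protein, was low too. Its estimated counts were 28, 23 and 24 in CTRL, 25, 31 and 32 at 24H, and 29, 19 and 17 at 48H. After normalisation TMAO 48H replicate 1 was the highest of all 9 libraries and the other 2 at 48H were the lowest. The 48H difference of -0.10 (SE 0.288; 95% interval -0.72 to 0.52) on the log2 scale turned to 0.10 without TMAO 48H replicate 2.

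TAGLN encodes transgelin, an actin-binding protein of smooth muscle, and had the most counts of the 10 markers. Normalised counts were 2250, 2529 and 2596 in CTRL, 2311, 2303 and 2103 at 24H, and 3187, 2906 and 3206 at 48H. The 48H libraries were above all others, whereas 24H and CTRL overlapped. TAGLN rose at an adjusted p under 0.05 at 48H, by 0.33 (SE 0.0606; 95% interval 0.20 to 0.47) on the log2 scale, which is 1.26-fold and under the fold threshold.

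ACTA2, the smooth muscle actin of contractile cells and myofibroblasts, was the only one of the 10 called higher. It had normalised counts of 123, 136 and 120 in CTRL, 142, 156 and 135 at 24H, and 186, 224 and 222 at 48H. The 48H libraries were above all others, and at 24H only TMAO 24H replicate 3 was below the highest CTRL library. The mean rose from 126 ± 8.84 (SD, n = 3) in CTRL to 211 ± 21.2 at 48H, a log2 difference of 0.74 (SE 0.118; 95% interval 0.48 to 0.99) or 1.67-fold. At 24H the difference was 0.19 (SE 0.118), with an interval from -0.061 to 0.45.

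**Figure D1:**
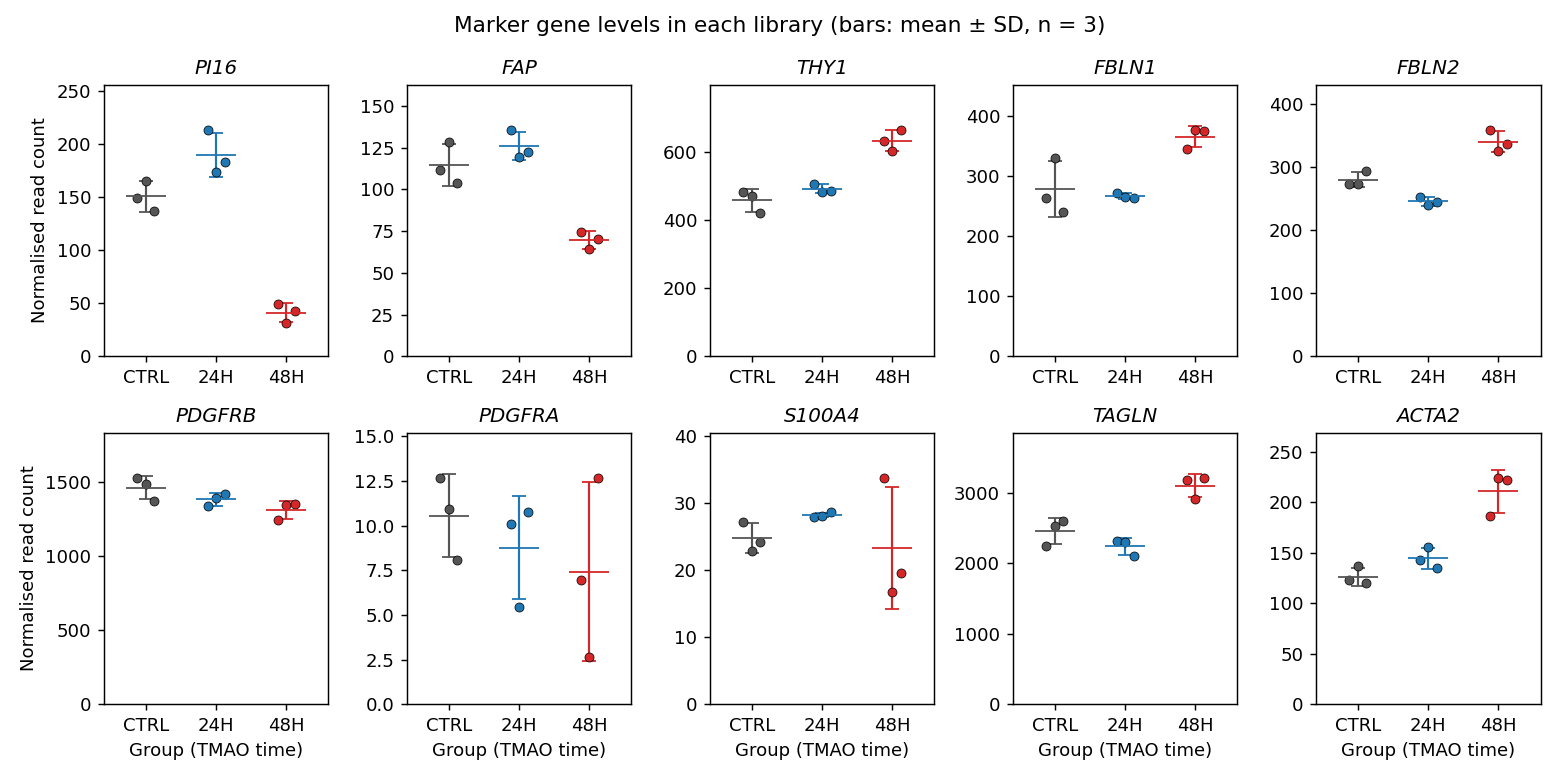
Normalised read count (vertical axis, starting at 0 and scaled for each gene) of the 10 markers in each library (points) of CTRL, TMAO 24H and TMAO 48H, with bars for the mean ± SD (n = 3). PI16 and FAP are lowest at 48H, THY1, FBLN1, FBLN2, TAGLN and ACTA2 are highest at 48H, and PDGFRA and S100A4 overlap between CTRL and 48H.

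Set side by side, the 10 markers did not move together at 48H. Of the 10, ACTA2 was called higher and PI16 and FAP were called lower, where 0.882% of all tested genes were called higher and 0.916% lower. At an adjusted p under 0.05 and any fold, 5 markers were higher (ACTA2, THY1, FBLN1, TAGLN and FBLN2) and 2 were lower, against 5.14% and 5.29% of all genes. The libraries of CTRL and 48H did not overlap for 8 of the 10, against 27.8% of all genes. Since the markers were listed with these contrasts known, nothing is read from these shares. Their median log2 fold change was 0.088, beside 0.0040 over all tested genes, and the values ran from -1.88 to 0.74.

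At 24H edgeR called 0 of the 10 markers, where it called 0% of all genes higher and 0.0475% lower. At any fold it passed 0 markers, against 0% of all genes higher and 0.095% lower, and DESeq2 called 0 markers. At an unadjusted p under 0.05, 1 marker was higher (PI16) and 2 were lower (FBLN2 and TAGLN), against 2.77% and 4.47% of all genes, from which nothing is read about the markers. CTRL and 24H did not overlap for 4 markers, namely PI16, THY1 and S100A4 above CTRL and FBLN2 below it, against 14.2% of all genes.

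**Figure D2:**
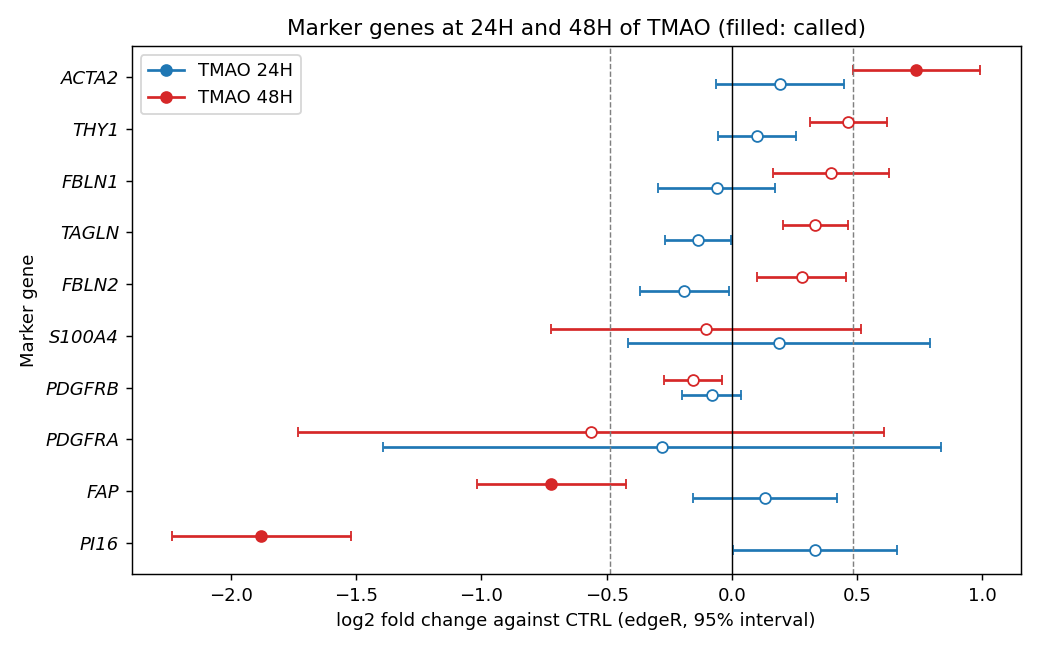
Log2 fold change against CTRL (horizontal axis, from edgeR) of each marker at TMAO 24H (blue) and TMAO 48H (red), with 95% intervals; filled points were called, and dashed lines mark a 1.4-fold change. At 48H ACTA2 lies at 0.74, FAP at -0.72 and PI16 at -1.88, and at 24H no marker was called.

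Both contrasts against CTRL share the 3 control libraries, so the change between the time-points was taken from the direct contrast of 48H with 24H. PI16 was 0.216-fold and FAP 0.553-fold of its level at 24H, and ACTA2 was 1.46-fold. These 3 were called, 1 higher against 0.862% of all genes and 2 lower against 0.848%. At any fold, TAGLN, FBLN2, FBLN1 and THY1 were also higher, with log2 differences of 0.47, 0.47, 0.46 and 0.36, which gave 5 markers higher and 2 lower against 3.77% of all genes in each direction. The call of ACTA2 in this contrast was lost without TMAO 24H replicate 3 and without TMAO 48H replicate 2, where the log2 difference was 0.50 in each fit but the adjusted p was no longer under 0.05. PDGFRB, PDGFRA and S100A4 did not pass, at log2 differences of -0.075, -0.29 and -0.29.

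Ratios within a library show the divergence without any scaling between libraries. The count of ACTA2 per count of PI16 was 0.824, 0.825 and 0.875 in the CTRL libraries, in ascending order, and 0.668, 0.740 and 0.901 at 24H. At 48H it was 3.81, 5.22 and 7.06. ACTA2 therefore had fewer counts than PI16 in all 6 libraries of CTRL and 24H and more in all 3 at 48H.

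Relative to FAP, ACTA2 and THY1 also rose at 48H, but ACTA2 had more counts than FAP in every library. ACTA2 per FAP had a median of 1.10 in CTRL (range 1.06 to 1.16), 1.10 at 24H (1.05 to 1.30) and 3.16 at 48H (2.5 to 3.48). THY1 per FAP had a median of 4.06 in CTRL (range 3.67 to 4.32), 3.96 at 24H (3.74 to 4.05) and 9.40 at 48H (8.5 to 9.48). For both ratios the libraries of CTRL and 24H overlapped, and those at 48H stood above them.

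Markers that went the same way also changed unequally. PI16 per FAP had a median of 1.32 in CTRL (1.29 to 1.33), 1.49 at 24H (1.45 to 1.57) and 0.607 at 48H (0.493 to 0.656), with no overlap between groups. ACTA2 per TAGLN had a median of 0.0539 (0.0462 to 0.0545) in CTRL, 0.0643 (0.0616 to 0.0677) at 24H and 0.0693 (0.0584 to 0.0770) at 48H, where it overlapped 24H but not CTRL. FBLN1 per FBLN2 spanned 0.818 to 1.21 in CTRL, which covered all the libraries at 24H (1.08 to 1.11) and 48H (0.964 to 1.16), so the ratio of the fibulins did not differ beyond the spread of CTRL.

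**Figure D3:**
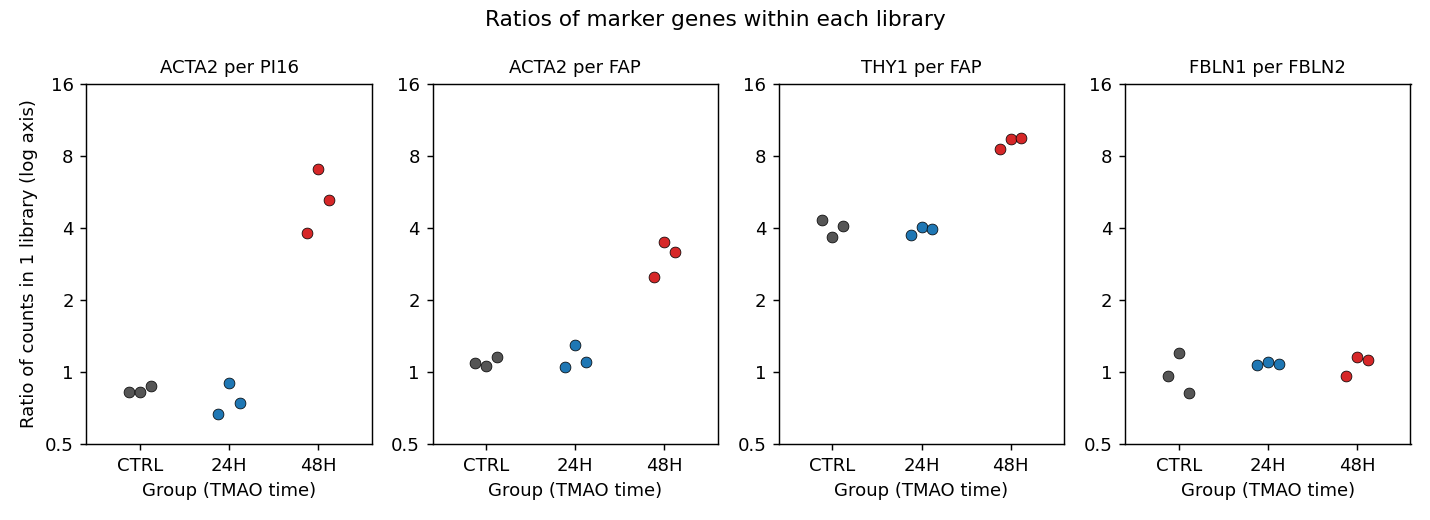
Ratio of the counts of 2 markers within each library (vertical axis, log scale) for CTRL, TMAO 24H and TMAO 48H, 1 point per library. ACTA2 per PI16, ACTA2 per FAP and THY1 per FAP are higher in all 3 libraries at 48H than in any other, while FBLN1 per FBLN2 stays between 0.818 and 1.21.

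The likeness of whole profiles was measured as the root mean square difference of depth-scaled log2 counts, centred on each gene's mean, over the 9 libraries. These values describe the same libraries as the fold changes and carry no test. The closest markers were FBLN2 and TAGLN, at 0.0659, followed by THY1 and FBLN1 at 0.119 and THY1 and TAGLN at 0.141. The farthest were PI16 and ACTA2, at 1.26, and PI16 and FBLN1, at 1.17.

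Among tested genes outside the 10 with a mean normalised count of at least 50, the profile nearest to PI16 was that of COL6A3, a chain of collagen VI, at a difference of 0.184. COL6A3 had log2 fold changes of 0.27 at 24H and -1.87 at 48H, close to the 0.33 and -1.88 of PI16. The next were the matrix metalloproteinase gene MMP2 at 0.460 and TGFBI, which encodes a matrix protein, at 0.467, both with smaller changes at 48H (-1.13 and -1.06). Nearest to FAP were HAPLN1 (0.0967), LTBP1 (0.0975) and AQP1 (0.100), with log2 fold changes at 48H of -0.81, -0.64 and -0.65. Nearest to ACTA2 were FAM129A (0.0713), TTBK2 (0.0965) and CHRFAM7A (0.0994), with 0.76, 0.58 and 0.57 at 48H. CHRFAM7A shares sequence with CHRNA7, so its count is uncertain.

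Levels were compared between genes per kilobase of exon (GENCODE release 29, all exons of a gene merged), which need not be the annotation behind the counts. In CTRL the order of normalised counts per kb was TAGLN (1024 ± 76.5), PDGFRB (256 ± 14), THY1 (102 ± 7.38), ACTA2 (93.6 ± 6.55), PI16 (63.2 ± 5.96), FBLN2 (60.1 ± 2.61), FBLN1 (56.5 ± 9.46), FAP (41.2 ± 4.51), S100A4 (30.0 ± 2.71) and PDGFRA (1.34 ± 0.295), each with its SD over 3 libraries. THY1 and ACTA2 did not differ beyond their spread, nor did PI16, FBLN2 and FBLN1.

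At 48H PI16 came the ninth in that order, at 17.3 ± 3.66 counts per kb, below FAP (25 ± 1.84) and S100A4 (28.2 ± 11). S100A4 did not differ beyond its spread from FAP or from PI16. ACTA2 stood at 156 ± 15.7 and THY1 at 141 ± 6.76, again within their spread. TAGLN and PDGFRB remained the highest, at 1291 ± 69.9 and 229 ± 10.8.

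Exons of other genes overlap some of the markers, and whether the counting used strand is not given in the sources used here. ACTA2-AS1, on the opposite strand, covers 38.3% of the exon bases of ACTA2 and was listed at 0 in all 9 libraries. PCSK7 covers 18.4% of those of TAGLN from the opposite strand, and its log2 fold change at 48H was -0.062 (SE 0.0588, edgeR adjusted p = 0.555). Overlapping genes of FAP, THY1 and PDGFRA were not analysed here.

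The lists of related genes that follow give the surroundings of the 10 markers at 48H against CTRL. These lists were also chosen with earlier results of these data known. Their counts and adjusted p-values are therefore a description, and nothing is read from the counts. Over all tested genes, 0.882% were called higher and 0.916% lower, and 5.14% and 5.29% had an adjusted p under 0.05 at any fold. Of 30 other fibroblast markers 22 were tested, of which 0 were called higher and 8 lower, with 13 lower at an adjusted p under 0.05 and any fold and a median log2 fold change of -0.23. They included collagen I, with COL1A2 at -1.08 (SE 0.0772, adjusted p = 5.9e-06) and COL1A1 at -0.67 (SE 0.0574, adjusted p = 2.2e-05), and COL5A1 at -0.49 (SE 0.0601, adjusted p = 0.00034), just past the fold threshold. COL5A1 was not called without CTRL replicate 1, CTRL replicate 2 or TMAO 48H replicate 1. With 1 library left out, 6 to 8 genes of the list were called lower. MMP2, which cleaves matrix, fell by 1.13 (SE 0.0655, adjusted p = 2.1e-06), the glycoprotein gene PDPN by 0.59 (SE 0.0494, adjusted p = 2.0e-05) and FN1, which encodes fibronectin, by 0.60 (SE 0.0981, adjusted p = 0.0022). PI16 and FAP thus moved in the direction of these genes, and THY1 in the opposite one.

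The fibulin and elastic fibre list, which leaves out FBLN1 and FBLN2, was split. Of 14 tested genes, 1 was called higher and 4 lower, with a median of -0.18. FBLN7 rose by 0.55 (SE 0.0816, adjusted p = 0.0012), while FBLN5 fell by 0.87 (SE 0.107, adjusted p = 0.00035) on the log2 scale. The basement membrane gene NID2 fell by 1.03 (SE 0.0707, adjusted p = 4.4e-06), and LTBP1 and LTBP2, which encode binding proteins of latent TGF-β or of elastic fibres, fell by 0.64 (SE 0.0527, adjusted p = 2.0e-05) and 0.63 (SE 0.0704, adjusted p = 0.00014). The fibrillin gene FBN1 was called lower against 24H, at -0.51 (SE 0.0690, adjusted p = 0.00040). Fibulin family members thus lay on both sides of 0, with FBLN7 called higher, FBLN1 and FBLN2 higher under the fold threshold and FBLN5 called lower.

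Contractile and mural genes did not follow ACTA2 as a list. Of 24 genes 19 were tested, with 1 called higher, 0 lower and a median of 0.031. The one called, LMOD1, an actin nucleator of smooth muscle, had a log2 difference of 0.74 (SE 0.217, adjusted p = 0.047). LMOD1 was not called by DESeq2, with no expression filter, with only the groups compared, with the older quasi-likelihood fit or with a replicate block. Nor was it called in 4 of the 6 fits that left out 1 library of CTRL or 48H, or with any 24H library left out. At an adjusted p under 0.05 and any fold, 2 genes were higher and 2 lower. These were named after their values were seen, the higher ones being LMOD1 and the myosin light chain gene MYL9 (0.30, SE 0.0474, adjusted p = 0.0018) and the lower ones SMTN (-0.18, SE 0.0377, adjusted p = 0.0091) and PDLIM7 (-0.29, SE 0.0456, adjusted p = 0.0017).

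Of 13 PDGF ligands and signalling partners 12 were tested, with 0 called higher and 1 lower. It was NRP1, a co-receptor of VEGF and PDGF, at -0.62 (SE 0.0477, adjusted p = 1.1e-05). Among 9 tested S100 genes and 3 tested actin and transgelin paralogs 0 were called. All 12 had negative log2 fold changes, as did 7225 of all 14740 tested genes. At any fold, 1 S100 gene and 0 paralogs had an adjusted p under 0.05. The smooth muscle actin gene ACTG2 did not pass the filter, with mean normalised counts of 1.66 in CTRL, 3.14 at 24H and 9.98 at 48H, where all libraries were above CTRL, and with no expression filter it was called higher. ACTG2 and ACTA2 are close in coding sequence, so how reads were divided between them is uncertain. Among 9 tested peptidase and CAP superfamily relatives of FAP and PI16, 0 were called, with 1 higher and 3 lower at an adjusted p under 0.05 and any fold.

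Endothelial markers were all tested, and 0 of 15 were called at 48H against CTRL. At an adjusted p under 0.05 and any fold, 0 were higher and 8 lower, and the median log2 fold change was -0.18. The summed normalised count of the 15 was 98311 to 108686 in CTRL, 97978 to 103895 at 24H and 87479 to 94689 at 48H. The 48H libraries were thus below all the others, and the part of this in the changes of the 10 markers was not tested. VWF was called higher against 24H, at 0.51 (SE 0.0770, adjusted p = 0.0011), a call that was lost without TMAO 24H replicate 2 and without TMAO 48H replicate 3. Against CTRL its log2 difference was -0.42 (SE 0.0769, adjusted p = 0.082) at 24H, with all libraries below CTRL, and 0.091 (SE 0.0767, adjusted p = 0.50) at 48H. Among the keratinocyte (7 tested) and leukocyte (2 tested) markers 0 genes were called, and at 24H 0 genes of any of these lists were called.

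**Figure D4:**
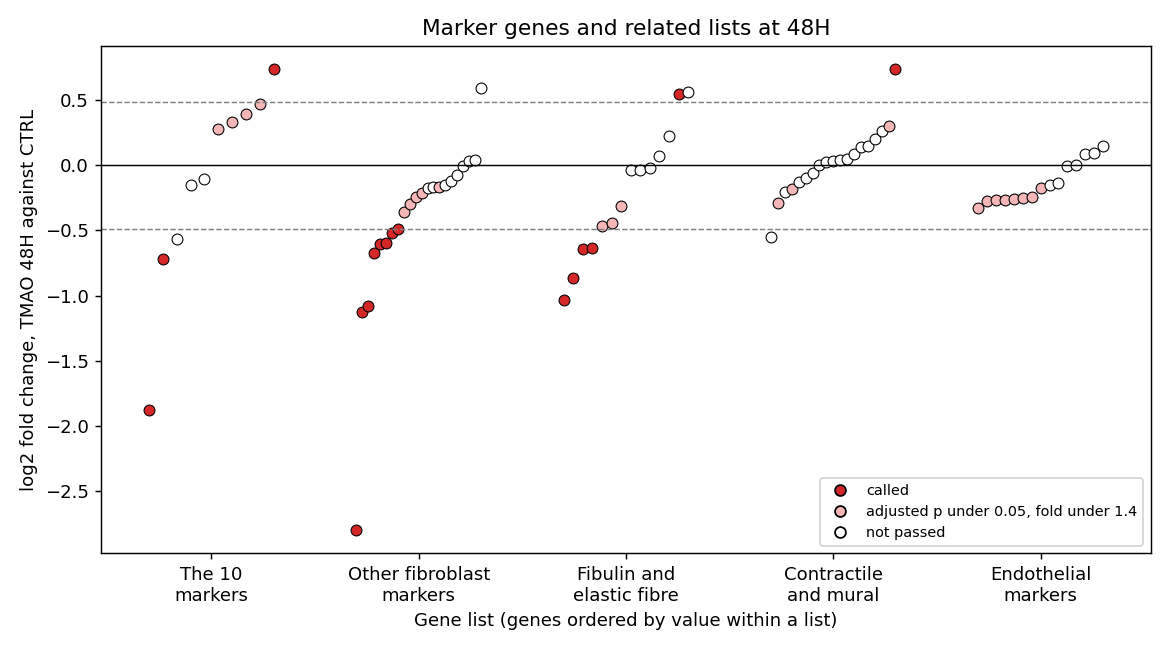
Log2 fold change at TMAO 48H against CTRL (vertical axis) of each tested gene in 5 lists, 1 point per gene, with dashed lines at a 1.4-fold change and the fill showing whether a gene was called. The 10 markers spread from -1.88 to 0.74, the other fibroblast markers have 8 called genes, all below 0, and 0 of 15 endothelial markers were called. The lowest point is LRRC15 (-2.80), named here after its values were seen, with normalised counts of 1.15 to 2.33 at 48H.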

How the data were processed

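RNA of HMEC-1 was sequenced in 9 libraries, 3 per group by the labels. The authors processed the reads with the nf-core RNAseq pipeline (Trim Galore is named in the submitters' processing notes) and deposited estimated counts (expected counts) per gene, without normalisation. Quantifier, genome build, annotation and strand setting are not given in the sources used here. Estimated counts were rounded, and edgeR 4.0.16 in R 4.3.3 was used with filterByExpr, TMM and one quasi-likelihood fit of all 9 libraries (biological coefficient of variation 0.0744). Standard errors were derived from the F statistic. P-values were adjusted by Benjamini-Hochberg over 14740 genes. Normalised counts are counts divided by a size factor from the TMM-scaled library size. The procedure was tested on simulated data. With 3 libraries against 3, permuting the libraries of 1 gene exactly, two-sided, cannot pass 0.05.

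The 10 markers and all lists were chosen with earlier results of these data known. Named from each list were genes called in any contrast, at most 6 with the smallest adjusted p, and, for each called marker, the 3 nearest profiles (prior count 2). The alternatives were DESeq2 1.42.0, RLE factors, other filters, no fold threshold, only the groups compared, the older fit, a replicate block, removal of 6 ribosomal RNA genes and leaving out each library. RT-qPCR and other assays of the study were not analysed here.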

Additional observations from a re-analysis of the deposited data

Results flagged for a closer look

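In the direct contrast of 48H with 24H, the effects of 7 of the 10 markers differed at an adjusted p under 0.05 and any fold. They were 5 higher and 2 lower, against 3.77% of all genes in each direction. Of the 7, 3 also passed the 1.4-fold threshold, against 0.862% of all genes called higher and 0.848% lower. The markers were listed with these contrasts known, so nothing is read from these counts. PI16 had a log2 fold change against CTRL of 0.33 at 24H and -1.88 at 48H, a difference of -2.21 (SE 0.166). FAP had 0.13 and -0.72, a difference of -0.85 (SE 0.137). ACTA2 had 0.19 and 0.74, a difference of 0.54 (SE 0.117). PI16 and FAP stayed called in all 6 fits that left out 1 library of 24H or 48H, with ranges of -2.35 to -2.05 and -0.90 to -0.80, and ACTA2 in 4 of 6. The other 4 differed by less than 1.4-fold, namely TAGLN by 0.47 (SE 0.0606), FBLN2 by 0.47 (SE 0.0822), FBLN1 by 0.46 (SE 0.108) and THY1 by 0.36 (SE 0.0714). With 1 library left out, TAGLN, FBLN2 and THY1 kept an adjusted p under 0.05 in 6 of 6 fits and FBLN1 in 3 of 6.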

How the results depend on the processing

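Of 446 recomputed values, 422 kept their direction and side of the threshold. Without a fold threshold 7 markers were called at 48H against CTRL and 7 against 24H. The shares of all genes were 5.14% higher and 5.29% lower against CTRL, and 3.77% in each direction against 24H. Since the markers were listed with these contrasts known, nothing is read from these counts of markers or those that follow. Leaving out 1 library gave 0 markers at 24H, 3 to 5 at 48H against CTRL (5 without CTRL replicate 2, which adds THY1 and FBLN1) and 2 to 5 against 24H (2 without TMAO 24H replicate 3, 5 without TMAO 24H replicate 1, which adds FBLN2 and TAGLN). The direction of the log2 fold change turned for FBLN1 at 24H without CTRL replicate 2 (0.082; range over the libraries left out -0.15 to 0.082), for S100A4 at 48H against CTRL without TMAO 48H replicate 2 (0.10; range -0.45 to 0.10) or 3 (0.0014), and for PDGFRA at 48H against 24H without TMAO 48H replicate 2 (0.17; range -0.91 to 0.17). The cause was not tested.

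The labels number the replicates alike in each group, but same-numbered libraries did not deviate together (correlations -0.12 to 0.091 over 9 pairs, and -0.10 to 0.16 over 18 differently numbered pairs), and a library correlated best with its own number in 3 of 18 cases. With the replicate block, 0, 3 and 3 markers were called at 24H, at 48H and at 48H against 24H, the same numbers as without it, while all called genes numbered 1, 214 and 213. At any fold, FBLN1 and FBLN2 no longer had an adjusted p under 0.05 at 48H against CTRL with this block. Over all genes, 7 calls at 24H became 11 with DESeq2, 14 without a fold threshold and 0 to 9 with 1 library left out, and 265 calls at 48H against CTRL and 252 against 24H became 1537 and 1110 without a fold threshold. PDGFRA and S100A4 had low counts, with 3 to 13 and 17 to 32 estimated counts per library. The part of depth in their spread between libraries was not tested.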
